A study of Mus musculus with 10 samples.

Results

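The Xlr3, Xlr4 and Xlr5 genes were followed across Tet1 and Tet2 mutant mouse embryonic stem (ES) cell lines. They were taken as every array probe whose gene name starts with Xlr3, Xlr4 or Xlr5, which gave 8 of 31539 gene names, measured by 11 of 39429 gene probes. The family was selected on its measured ratios of double mutant (DKO) over wild-type (WT) cells, in which its Xlr4 probes were high, so the values of that comparison are given as a description and are not tested. Agilent arrays with a red (Cy5) and a green (Cy3) channel compared RNA of male and female DKO lines, which lack Tet1 and Tet2, with RNA of WT lines of the same sex. The DKO lines were 51 and 61 (male) and 60 and 59 (female), and they were paired with WT lines 6, 92, 7 and 94 in that order. The male line T2KO 16, which lacks Tet2, was hybridised against the male line T1KO 65, which lacks Tet1, and another male Tet1 mutant line, T1KO 99, was used in the Cy3 channel only, since the labels set aside its Cy5 partner for a wrong genotype. All lines came from mice of a C57/BL/6 mixed background and grew with LIF on irradiated feeder cells, which were taken off by preplating before RNA was extracted. T2KO rests on 1 line, and no group has more than 2 lines of one sex. DKO and T2KO RNA was always labelled with Cy5 and WT and T1KO RNA with Cy3, so dye and genotype cannot be told apart within an array.

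Xlr (X-linked lymphocyte-regulated) genes lie in tandem copies on the mouse X chromosome and were first described in lymphoid cells. They encode nuclear proteins with a domain related to the synaptonemal complex protein SYCP3, which builds the axes of meiotic chromosomes, and they are known from the germ line. In mouse brain, Xlr3b, Xlr4b and Xlr4c are known as imprinted genes. Tet1 and Tet2 encode dioxygenases that oxidise 5-methylcytosine in DNA.

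The probes are 60 bases long, and 10 of the 11 lie in 1 cluster that spans 212298 bases of the X chromosome, at chrX:70319816-70532113 on mm9, the build of the array's coordinates. The probe for the pseudogene Xlr4d-ps lies apart at chrX:71979593-71979652. Transcript accessions that the array design lists for each probe place 7 of the 11 probes on more than 1 current gene and 3 on a single gene. The Xlr4d-ps probe matched no current gene. Xlr3a, Xlr5a and the first Xlr5c probe are the 3 with 1 gene. Both Xlr3b probes list Xlr3a, Xlr3b and Xlr3c, the first Xlr4a probe lists Xlr4a, Xlr4b and Xlr4c, the second Xlr4a and Xlr4c, and the Xlr4b probe lists Xlr4a and Xlr4b. The Xlr5b probe lists Xlr5a and Xlr5b, and the second Xlr5c probe lists all of Xlr5a, Xlr5b and Xlr5c. No probe carries the name Xlr3c or Xlr4c, so these copies can appear here only through the probes of their relatives.

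The probe sequences are shown because they decide which copies a value can stand for. Capitals mark the stretches of at least 20 bases that a probe shares with another probe of the family, and positions are on mm9.
Xlr3a (chrX:70337114-70337173, minus strand): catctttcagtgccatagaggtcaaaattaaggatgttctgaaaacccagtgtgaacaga
Xlr3b probe 1 (chrX:70447883-70447942, plus strand): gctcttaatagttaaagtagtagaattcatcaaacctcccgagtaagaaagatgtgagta
Xlr3b probe 2 (chrX:70448087-70448146, plus strand): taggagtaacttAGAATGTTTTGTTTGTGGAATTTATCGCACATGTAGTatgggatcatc
Xlr4a probe 1 (chrX:70326874-70326933, minus strand): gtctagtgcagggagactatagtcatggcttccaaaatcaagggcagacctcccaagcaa
Xlr4a probe 2 (chrX:70319816-70319875, minus strand): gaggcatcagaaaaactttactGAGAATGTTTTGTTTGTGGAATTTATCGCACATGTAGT
Xlr4b (chrX:70467477-70467536, plus strand): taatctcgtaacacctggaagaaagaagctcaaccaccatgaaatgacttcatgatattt
Xlr4d-ps (chrX:71979593-71979652, plus strand): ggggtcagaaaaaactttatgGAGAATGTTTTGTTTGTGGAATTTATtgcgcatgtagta
Xlr5a (chrX:70352978-70353037, minus strand): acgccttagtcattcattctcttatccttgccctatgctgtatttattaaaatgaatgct
Xlr5b (chrX:70403373-70403432, plus strand): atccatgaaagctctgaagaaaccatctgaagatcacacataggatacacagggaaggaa
Xlr5c probe 1 (chrX:70530536-70530595, minus strand): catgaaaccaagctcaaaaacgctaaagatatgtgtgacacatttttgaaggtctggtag
Xlr5c probe 2 (chrX:70532054-70532113, minus strand): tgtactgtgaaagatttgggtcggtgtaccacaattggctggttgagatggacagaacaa
Of the 55 pairs of probes, 3 share at least 20 bases, and the longest run in any other pair is 8 bases. The second Xlr3b probe and the second Xlr4a probe share 37 bases in a row, so they cannot be read as independent of each other. The Xlr4d-ps probe shares 26 bases in a row with the second Xlr4a probe and 25 with the second Xlr3b probe, yet it stayed close to background in nearly every line (below). No other gene probe of the array shares 20 bases with a member on either strand.

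Some copies of a subfamily also resemble one another in front of their starts. In windows of 300 bases (250 before and 50 after the start, RefSeq, GRCm38.p6), 10 of these genes were found. One window per subfamily is shown with CpG dinucleotides, the sites of most DNA methylation in mammals, in capitals.
Xlr3b start region: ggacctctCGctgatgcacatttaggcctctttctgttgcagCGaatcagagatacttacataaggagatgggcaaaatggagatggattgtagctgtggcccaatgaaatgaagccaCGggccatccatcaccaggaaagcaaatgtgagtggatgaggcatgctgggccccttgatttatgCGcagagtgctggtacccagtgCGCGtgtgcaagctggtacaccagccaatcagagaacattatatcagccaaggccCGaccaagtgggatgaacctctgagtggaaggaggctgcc
Xlr4b start region: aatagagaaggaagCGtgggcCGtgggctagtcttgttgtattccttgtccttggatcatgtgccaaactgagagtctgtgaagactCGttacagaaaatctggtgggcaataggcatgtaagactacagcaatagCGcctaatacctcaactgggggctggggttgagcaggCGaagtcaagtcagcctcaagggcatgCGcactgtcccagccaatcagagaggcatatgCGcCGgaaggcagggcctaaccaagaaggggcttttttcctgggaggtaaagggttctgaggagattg
Xlr5b start region: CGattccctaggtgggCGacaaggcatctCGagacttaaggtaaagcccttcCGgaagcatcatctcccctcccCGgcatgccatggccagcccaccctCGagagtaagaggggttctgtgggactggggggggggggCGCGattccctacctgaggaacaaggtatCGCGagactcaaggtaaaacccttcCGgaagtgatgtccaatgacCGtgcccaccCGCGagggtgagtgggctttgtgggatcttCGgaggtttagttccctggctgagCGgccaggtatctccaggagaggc
The Xlr3b window is chrX:73191929-73192228 (plus strand), the Xlr4b window chrX:73214083-73214382 (plus strand) and the Xlr5b window chrX:73148591-73148890 (plus strand). They hold 7, 8 and 16 CpG in that order, beside a median of 7 over 32851 such windows of mouse genes. At the best ungapped shift, the Xlr5a and Xlr5b windows were identical over all 255 shared positions, Xlr4a and Xlr4c over 98.1%, Xlr4b and Xlr4c over 97.1%, and Xlr3b and Xlr3c over 91.1%. Other copies did not: the Xlr3a window had 54.3% identity to that of Xlr3b and 57.6% to that of Xlr3c, the Xlr4d-ps window 31.1% to that of Xlr4a and 32.1% to that of Xlr4b, and the Xlr5c window, with 1 CpG, 34.3% to that of Xlr5b. The letters CACGTG and TCCCGC, sought on both strands, were in none of the 10 windows, while 7.2% and 20% of all windows hold them.

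The labels held for Tet1 and Tet2 in all 11 lines. Whether the Tet probes lie in the deleted parts was not checked here. Tet1 had log2 levels of 10.52 to 11.07 in the DKO lines, 10.92 and 11 in the T1KO lines, 12.91 in T2KO 16 and 12.78 to 13.12 in WT lines, and Tet2 was lower in each line that lacks it, at 9.40 to 10.12, than in the other lines, at 11.43 to 12.05. ES cell markers (8 of 8 tested) had median levels of 15.14 to 15.51 per line, and 14 of 14 feeder fibroblast markers were also measured, with medians of 11.63 to 12.62. The labelled sex did not hold in full: of 2 tested Y-linked genes, T1KO 99, labelled male, had 6.70 for Eif2s3y and 7.31 for Ddx3y, against 6.15 to 6.80 and 6.63 to 6.94 in the 4 female lines. DKO 51, also labelled male, had 8.75 and 7.20, while the other male lines had 9.19 to 10.86 and 8.44 to 9.97. The main counts, means and tests that use either line are also given without it. Levels are log2 intensities after normalization, and a level of one probe is not set against that of another. Repeat arrays of a line differed by a median of 0.08 and at most 0.41 over the family's probes.

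All 11 probes were well above background on every female DKO array, 9 on every male DKO array, 10 on every T2KO array and 10 on every female WT array. In T1KO cells 8 of the 11 were not well above background on any array, and in male WT cells 7 were not. All 11 passed the filter on dim probes, which a probe passes when every array of some genotype-and-sex group detects it, and 7 passed only through groups other than male WT and T1KO. Their counts below therefore describe probes that had to be high somewhere.

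**Figure D1:**
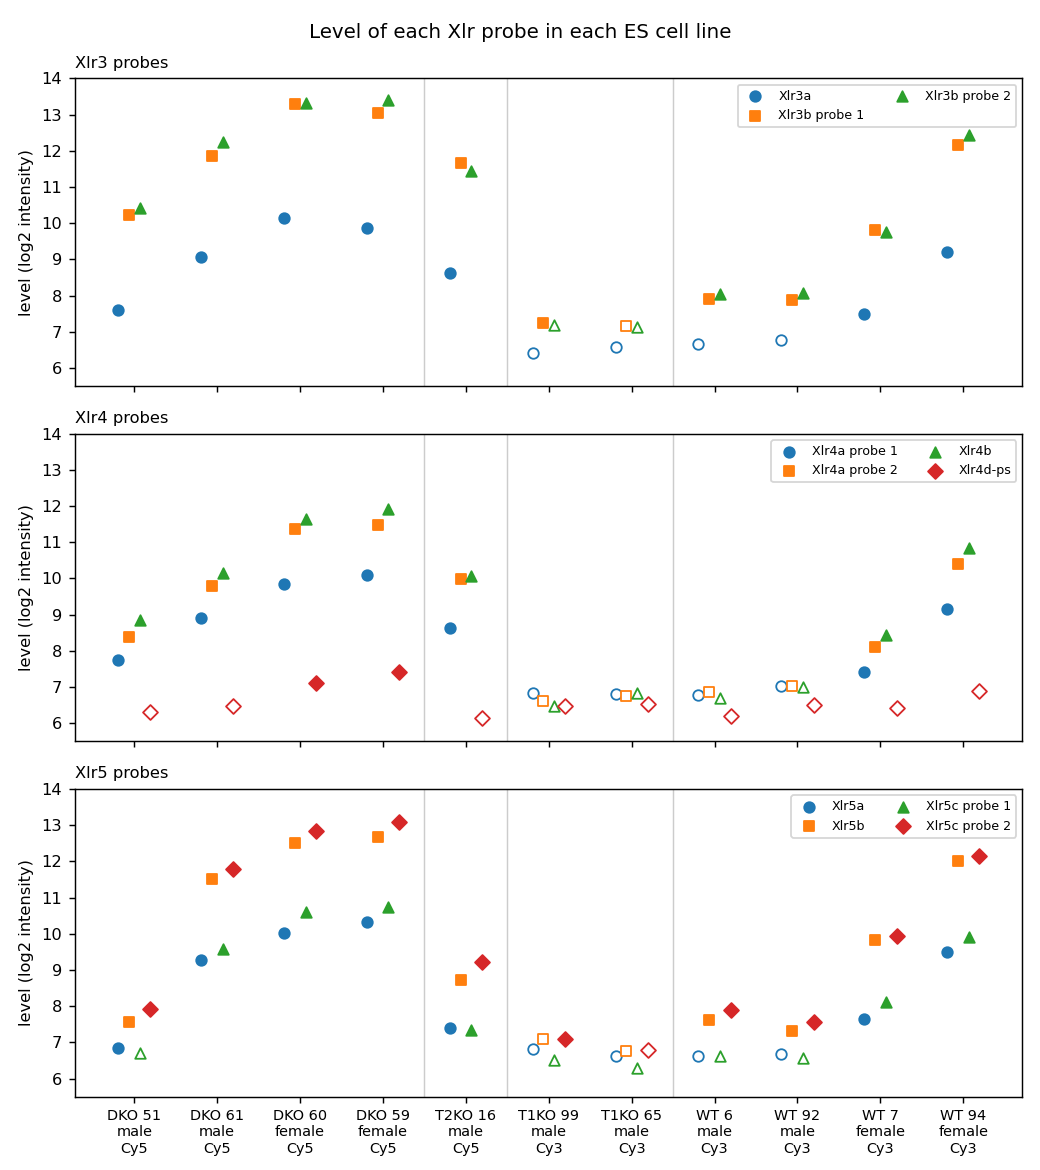
Log2 level of each probe (y axis) in each of the 11 lines (x axis, with labelled sex and dye), 1 panel per subfamily. Filled symbols were well above background on all arrays of the line and open ones were not. Female DKO lines and WT 94 sit highest, and male WT and T1KO lines sit lowest, near background for most probes.

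Among the Xlr3 probes, the first Xlr3b probe, which lists 3 genes, had levels of 10.23, 11.85, 13.28 and 13.04 in DKO 51, 61, 60 and 59, against 7.90, 7.88, 9.81 and 12.16 in WT 6, 92, 7 and 94. Its T2KO 16 level was 11.66, and its T1KO levels were 7.23 in line 99 and 7.15 in line 65. All DKO lines lay above their own WT partner, but the groups overlapped, since WT 94 lay above both male DKO lines. The mean log2 DKO over WT ratio of this probe was 2.67 ± 1.38 (SD, n = 4 pairs), a 6.36-fold difference (in bulk RNA, more expressing cells and more RNA per cell cannot be told apart), and 2.78 ± 1.41 for the second Xlr3b probe, whose levels followed the same order of groups.

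Xlr3a is represented by a probe for 1 gene. Its levels were 7.60, 9.06, 10.14 and 9.87 in DKO 51, 61, 60 and 59, against 6.65, 6.77, 7.49 and 9.20 in WT 6, 92, 7 and 94. It reached 8.63 in T2KO 16 and was not well above background on any array of the T1KO lines or of male WT. The ratio averaged 1.64 ± 0.97 (SD, n = 4 pairs).

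For Xlr4b, levels were 8.86, 10.16, 11.65 and 11.92 in DKO 51, 61, 60 and 59, against 6.69, 6.99, 8.45 and 10.84 in WT 6, 92, 7 and 94. T2KO 16 had 10.06, and T1KO 99 and T1KO 65 had 6.49 and 6.83, not well above background. As with Xlr3b, each DKO line exceeded its partner and WT 94 exceeded both male DKO lines. The ratio averaged 2.41 ± 1.00 (SD, n = 4 pairs), with 2.17, 3.17, 3.20 and 1.08 in the 4 pairs. The Xlr4a probes averaged 1.56 ± 0.73 and 2.15 ± 1.02. In male cells, where WT was dim, male DKO cells had at least 6.26-fold more Xlr4b signal (means 9.51 in male DKO and 6.84 in male WT), at least 4.40-fold more of the second Xlr4a probe (9.09 in male DKO and 6.95 in male WT) and at least 2.92-fold more Xlr3a (8.33 in male DKO and 6.71 in male WT). These bounds set the mean of the bright group against the higher of the dim probe's signal and the lowest signal well above background.

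The pseudogene probe behaved otherwise. Xlr4d-ps exceeded background on every array only in the female DKO lines, at 7.11 and 7.41, against 6.43 and 6.88 in the female WT lines. In all male lines it stayed at 6.14 to 6.53. Its ratio averaged 0.32 ± 0.33 (SD, n = 4 pairs).

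The Xlr5 probes split the male pairs. The second Xlr5c probe, which lists all Xlr5 copies, had levels of 7.93 in DKO 51, 11.79 in DKO 61, 12.83 in DKO 60 and 13.09 in DKO 59, against 7.89, 7.56, 9.95 and 12.16 in WT 6, 92, 7 and 94. DKO 51 thus sat at the level of its WT partner, where the other 3 DKO lines were higher than theirs. The 4 Xlr5 probes had log2 ratios of -0.08 to 0.23 in DKO 51 over WT 6 and 2.59 to 4.23 in DKO 61 over WT 92. In the same DKO 51 pair, the 3 Xlr3 probes had 0.96 to 2.39 and the 3 Xlr4 probes other than Xlr4d-ps 0.98 to 2.17.

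As subfamily means, Xlr3 had ratios of 1.89, 3.48, 3.23 and 0.84 in DKO 51, 61, 60 and 59 over their partners, Xlr4 without Xlr4d-ps had 1.55, 2.60, 2.96 and 1.03, and Xlr5 had 0.07, 3.5, 2.61 and 0.81. Xlr5 minus Xlr3 was -1.82 in the DKO 51 pair, 0.02 in the DKO 61 pair, -0.63 in the DKO 60 pair and -0.03 in the DKO 59 pair. The number of the 4 Xlr5 probes below every Xlr3 probe was 4 in the DKO 51 pair, 0 in the DKO 61 pair, 2 in the DKO 60 pair and 0 in the DKO 59 pair. In WT 6 the Xlr3a, Xlr5a and first Xlr5c probes were not well above background, so their ratios in the DKO 51 pair have a bound as denominator. Of the probes measured in both lines of that pair, the Xlr3b probes had 2.34 and 2.39, and Xlr5b and the second Xlr5c probe had -0.08 and 0.04. DKO 51 is also one of the 2 lines with low Y-linked levels. Without the DKO 51 pair the mean of the 4 Xlr4 probes was 1.75, against 1.61 with it. Likewise the Xlr3b means were 2.78 and 2.91 without it, the Xlr3a mean 1.87, the Xlr4b mean 2.48 and the Xlr4d-ps mean 0.39. The Xlr5 means were 1.93 to 2.68 without it, against 1.51 to 2.02 with it. With log ratios taken from the scanner software and all pairs kept, the mean of the 4 Xlr4 probes was 2.51.

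Over the 11 probes, 10 had a mean DKO over WT ratio above 1 on the log2 scale, where 0.51% of the 25869 tested probes did, and 9 were above 0 in each of the 4 pairs, as were 19.9% of all. In the DKO 51 pair alone 4 of the 11 exceeded 1, beside 1.31% of all tested probes. All of these shares come from the ratios on which the family was chosen, so they are a description and no independent support. The median ratio of the 11 probes was 1.87, beside 0.02 over all tested probes.

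**Figure D2:**
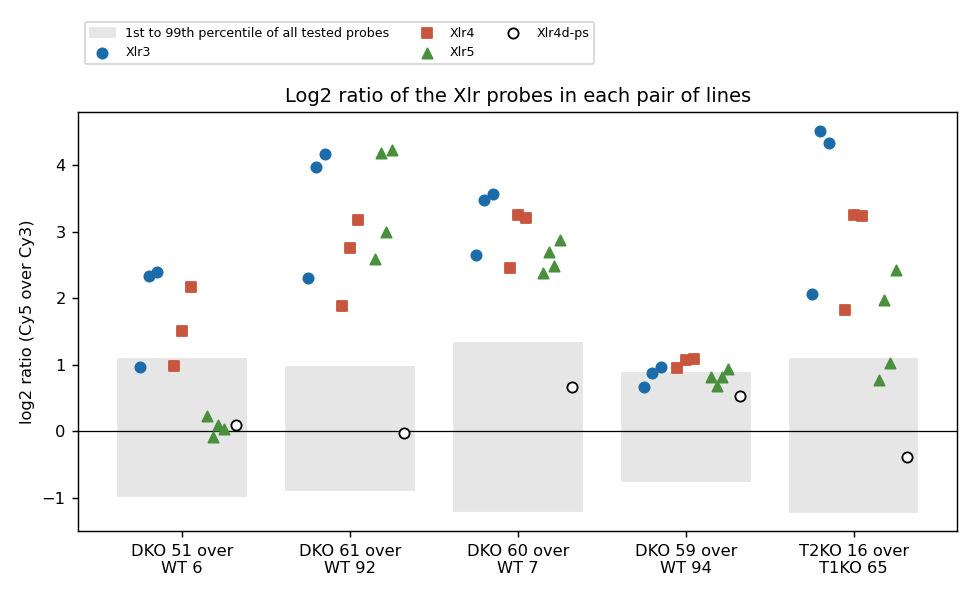
Log2 Cy5 over Cy3 ratio (y axis) of each Xlr probe in the 5 pairs of lines (x axis), coloured by subfamily, with the Xlr4d-ps probe as an open circle. Grey boxes span the 1st to the 99th percentile of all tested probes in that pair. The Xlr5 probes lie near 0 in DKO 51 over WT 6, and all probes lie at or below 1.08 in DKO 59 over WT 94.

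T2KO 16 was set directly against T1KO 65, in lines that took no part in the choice of the family. T2KO cells had the higher value for 10 of the 11 probes, with a median log2 ratio of 2.06, beside 0.01 over all tested probes. Most of these probes list copies that another probe also lists, so they do not count as separate observations. The arrays gave the first Xlr3b probe levels of 11.65 and 11.68 in T2KO 16, against 7.23 and 7.08 in T1KO 65, and Xlr4b a mean of 10.06 in T2KO 16, against 6.83 in T1KO 65. The log2 ratios were 4.51 (SE 1.05) and 4.33 (SE 1.08) for the Xlr3b probes, 3.23 (SE 0.802) for Xlr4b, 3.25 (SE 0.859) and 1.83 (SE 0.605) for the Xlr4a probes, and 2.06 (SE 0.817) for Xlr3a. The Xlr5 probes had 0.77 to 2.42, and Xlr4d-ps had -0.39. As every probe of the family was dim on both T1KO 65 arrays, the differences are bounds: at least 22.8-fold and 20.2-fold for Xlr3b (adjusted p = 0.298 and 0.306 by limma), 9.40-fold for Xlr4b (0.306) and 5.36-fold for the second Xlr5c probe (0.571).

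By limma with Benjamini-Hochberg adjustment over all tested probes, 0 of the 11 probes passed 0.05 (adjusted p = 0.298 to 0.775), and 0% of all probes did. At an unadjusted p under 0.05, 5 probes were higher, beside 6.05% of all probes, and Xlr4d-ps was lower. Without the DKO 51 pair 0 passed as well. The SE here comes from the DKO over WT pairs, since T2KO 16 and T1KO 65 are 1 line each. In size, 9 of 11 probes were above 1, where 1.22% of all probes were, and 4 of the 7 probes above 3 on the array (0.0271%) belonged to the family. These 4 were both Xlr3b probes, the second Xlr4a probe and Xlr4b, each with a T1KO 65 signal not well above background. All arrays kept with the pair as a random effect gave 4 probes past 0.05, namely both Xlr3b probes, Xlr4b and the second Xlr4a probe (adjusted p = 0.0248 to 0.0363), with repeat arrays of the same RNA counted as observations and 621 probes called in all. With normexp fitted on all spots, the ratio was 0.85 for the first Xlr3b probe and 0.28 for Xlr4b, and with the scanner software's log ratios they were 6.32 and 6.36. In the all-spots setting the fitted background SD of the Cy3 channel of these arrays was 3670 and 2620 in place of 3.92 and 7.43.

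T2KO 16 and the male DKO lines share the absence of Tet2 and the Cy5 dye. T2KO lay between the male DKO lines for 9 of the 11 probes and above both for the second Xlr4a probe. The share of all tested probes was not counted here, and the family's probes are not independent of each other. DKO 61 lay 1.14 to 3.96 above DKO 51 for the 10 probes other than Xlr4d-ps, which leaves a wide range between them. T2KO 16 was also hybridised on another slide than the male DKO lines, so no conclusion is drawn from this count. T2KO 16 was higher than DKO 51 for 10 of the 10 probes other than Xlr4d-ps, by 0.55 to 1.61. Of these, 7 differed by more than 1, beside 0.816% of all tested probes. It was higher than DKO 61 for 1, with differences of -2.78 to 0.20 and 0 above 1, beside 1.42% of all. Together, the 3 male Cy5 lines lacking Tet2 lay above the 4 male Cy3 lines that have it for 9 of 11 probes, as did 7.57% of all tested probes, and genotype and dye cannot be told apart in that count. Without DKO 51 and T1KO 99, T2KO 16 and DKO 61 lay above T1KO 65 and both male WT lines for 10 of 11 probes, beside 12.4% of all. The male DKO and male WT lines also gave ratios on which the family was chosen. Most of the probes counted passed the filter only through groups other than male WT and T1KO. These counts are therefore not independent of the choice or the filter, and no conclusion is drawn from them.

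Loss of Tet1 alone was read in the Cy3 channel, where the T1KO lines are set against male WT on other slides. The first Xlr3b probe had 7.23 and 7.15 in T1KO 99 and T1KO 65, against 7.90 and 7.88 in WT 6 and WT 92, and the second Xlr5c probe had 7.09 and 6.78 in the T1KO lines, against 7.89 and 7.56 in male WT. No probe had both T1KO lines above both male WT lines, which 22.7% of all tested probes did, and 7 of 11 had both below, beside 26.1% of all. Without T1KO 99, T1KO 65 lay above both male WT lines for 1 of 11 probes (36.2% of all) and below both for 7 (38.5% of all). Differences were -0.89 to 0.16. The mean over the Xlr4 probes was -0.09, or -0.03 without T1KO 99, and its sign was not stable: it was 0.62 with normexp fitted on all spots and 0.03 without WT 92. Most of these levels were not well above background, so that a difference of this size could not be resolved.

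The family's level was also read by labelled sex within WT lines. These lines are also the denominators of the DKO over WT ratios on which the family was chosen. In male WT 7 of the 11 probes were not well above background on any array and passed the filter only through brighter groups. The counts and tests by sex are therefore not independent of the choice or the filter, and no conclusion is drawn from them. The second Xlr5c probe had 9.95 and 12.16 in the female WT lines 7 and 94, against 7.89 and 7.56 in the male WT lines 6 and 92, and Xlr4b had 8.45 and 10.84 in female WT, against 6.69 and 6.99 in male WT. Both female lines lay above both male lines for 10 of 11 probes, as did 18.5% of all tested probes, and Xlr4d-ps was the exception. Female WT minus male WT was 3.43 (SE 0.659) for Xlr5b, 3.33 (SE 0.666) for the second Xlr5c probe, 3.10 (SE 0.698) for the first Xlr3b probe and 2.80 (SE 0.717) for Xlr4b. The median of the 11 probes was 2.42, beside -0.02 over all probes, and 10 of 11 exceeded 1, beside 1.08% of all.

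None of the 11 passed 0.05 after adjustment by limma (0 of 11, adjusted p = 0.199 to 0.615), where 0.367% of all probes did, and 10 were higher at an unadjusted p under 0.05, beside 5.32% of all. The outcome turned on single lines. Without WT 7, 9 probes passed (smallest adjusted p = 0.00651), out of 11 on the whole array, and without WT 94, 1 probe passed (adjusted p = 0.049), out of 22 on the whole array. Without T1KO 99, which enters only the estimate of spread, 0 passed, out of 1 on the whole array. The sexes were hybridised on different slides, so sex and slide cannot be told apart. X-linked probes outside the family had a median difference of 0.09 between female and male WT, and autosomal probes -0.02.

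WT 94 and WT 7, both female and both on the same slide and dye, were far apart. WT 94 was higher for 10 of 10 probes other than Xlr4d-ps, by 1.70 to 2.68, where 0.982% of all tested probes differed by more than 1 in this direction. In contrast, WT 6 and WT 92 differed by -0.29 to 0.33, T1KO 99 and T1KO 65 by -0.33 to 0.34, and DKO 60 and DKO 59 by -0.31 to 0.27. Repeat arrays differed by a median of 0.08, and their largest difference, 0.41, was that of Xlr4d-ps in WT 6. The male DKO lines 61 and 51 differed by 1.14 to 3.96, and the Xlr5 probes made up the upper end. Ordered by the mean deviation of these 10 probes from their own average, the lines ran DKO 59 (2.71), DKO 60 (2.60), WT 94 (1.82), DKO 61 (1.45), T2KO 16 (0.35), WT 7 (-0.30), DKO 51 (-0.73), WT 92 (-1.77), WT 6 (-1.79), T1KO 99 (-2.13) and T1KO 65 (-2.19). DKO 59 and DKO 60, WT 92 and WT 6, and T1KO 99 and T1KO 65 are neighbours in this order, and their order within each pair was not tested. Single probes could differ more between such neighbours than between repeat arrays. Xlr4b had 11.94 and 11.90 on the DKO 59 arrays, against 11.65 in DKO 60, and Xlr5b 7.62 and 7.63 in WT 6, against 7.32 in WT 92. Not every probe did so: Xlr3a had 10.02 and 9.72 on the DKO 59 arrays, against 10.14 in DKO 60. DKO 60 and WT 92 had 1 array each, so their own spread between arrays is not known.

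Female DKO lines lay above the male DKO lines for 10 of the 10 probes other than Xlr4d-ps, as did 21.1% of all tested probes, and above DKO 61 alone for the same number, beside 33.8% of all. Xlr4d-ps passed the filter on dim probes only through the female DKO lines, so its place above the male lines is not counted. Female WT lines were high as well, and the DKO over WT ratio was compared between the sexes. The family was chosen on these same lines and ratios. The counts and tests by sex are therefore not independent of that choice, and no conclusion is drawn from them. Female minus male differences of that ratio were -1.01 to 0.56 with a median of 0.02, and 0 of 11 passed 0.05 by limma (adjusted p = 0.835 to 0.997), with 0% of all probes called and 0 members without the DKO 51 pair. At an unadjusted p under 0.05 there was 1 probe, beside 5.06% of all, and it was Xlr4d-ps, for which the filter favours such a difference. For Xlr4b the female mean was 2.14 and the male mean 2.67, a difference of -0.53 (SE 0.802). The pair with WT 94, the WT line in which the family was highest, had the smallest ratios of the female pairs, at 0.53 to 1.08. X-linked probes outside the family had a median ratio of 0.44 in the DKO 60 pair, 0.13 in the DKO 59 pair, 0.20 in the DKO 61 pair and -0.02 in the DKO 51 pair, beside 0 to 0.02 for autosomal probes, and their part in the Xlr ratios was not tested.

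Genes around the cluster were read on the same arrays. Within 500000 bases of the cluster, 24 probes of 19 other genes were tested, with DKO over WT ratios of -0.09 to 1.45 and T2KO over T1KO ratios of -1.01 to 0.49. In DKO over WT, 1 of the 24 was called higher by limma, Pnck, a calcium/calmodulin-dependent kinase gene, at 0.67 (adjusted p = 0.0333), beside 2.45% of all probes. None was called in T2KO over T1KO, by limma, where 0% of all probes were.

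DXBay18 lies inside the cluster. Its 3 probes had DKO over WT ratios of 1.45, 1.13 and 0.98 (adjusted p = 0.0657 to 0.116) and T2KO over T1KO ratios of -0.59, -0.56 and -0.40 (adjusted p = 0.713 to 0.782, both by limma). Pairs DKO 51, 61, 60 and 59 gave 0.67, 1.64, 2.45 and 1.04 for its first probe, all above 0. Gm5639, just past the cluster, had 1.00 in DKO over WT (adjusted p = 0.0837 by limma) and -0.27 in T2KO over T1KO (adjusted p = 0.836). All 10 Xlr probes of the cluster had mean ratios above 0 in both comparisons. The medians over all tested probes were 0.02 in DKO over WT and 0.01 in T2KO over T1KO. The share of all probes above 0 was not counted. In DKO over WT the family was chosen on these ratios and the neighbours were not, so the 2 are not compared there.

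**Figure D3:**
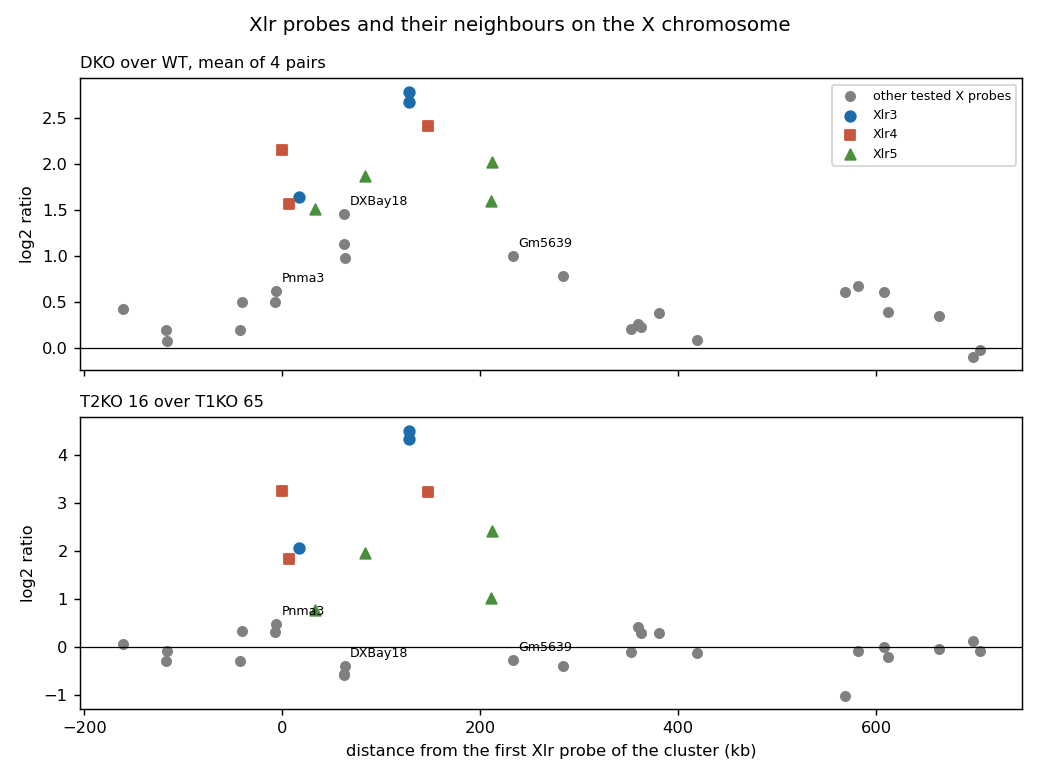
Log2 ratio (y axis) of Xlr probes and of the other tested X-linked probes within 500000 bases, by distance from the first Xlr probe of the cluster (x axis, kb). DKO over WT (upper panel, mean of 4 pairs) is raised at DXBay18 inside the cluster, while T2KO 16 over T1KO 65 (lower panel) is raised at Xlr probes and not at DXBay18.

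More distant relatives of the family had small ratios. Of 11 listed XLR relatives 6 were tested, and by limma 0 passed 0.05 in DKO over WT (background 4% in either direction), with 0.40 for Xlr (adjusted p = 0.106), the founding gene of the family, and 0.61 for Slx (adjusted p = 0.14), a multi-copy X-linked spermatid gene. In T2KO over T1KO the same 6 genes had a median of -0.07, and none was above 1.

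Of 53 listed X-linked germline genes 26 were tested. None passed 0.05 by limma, although 22 of 26 had a value above 0 in DKO over WT, with a median of 0.33 beside 0.02 over all probes. The highest values were 1.28 for Fmr1nb (adjusted p = 0.0511) and 1.25 for Fthl17 (adjusted p = 0.171). By pair, the list had median ratios of 0.03, 0.22, 0.85 and 0.27 in DKO 51, 61, 60 and 59 over their WT partners. X-linked probes outside the Xlr family had -0.02, 0.20, 0.44 and 0.13 in the same order. The difference between the list and other X-linked probes was not tested, and the share of all probes above 0 was not counted. In T2KO over T1KO 4 of the 26 were above 1, beside 1.22% of all probes, with 2.64 for Rhox10 (adjusted p = 0.283 by limma) and 2.01 for Rhox13 (adjusted p = 0.271), both Rhox homeobox genes. Others of that family had values below 0, -1.71 for Rhox6 and -1.14 for Rhox9, which are named after their values were seen, and the median of the 26 was 0.11. Of 20 tested autosomal germline genes known to be silenced by DNA methylation, 2 rose in DKO over WT by limma, beside 2.45% of all probes: Dazl, an RNA-binding protein of germ cells, at 1.26 (adjusted p = 0.0232) and Mov10l1, an RNA helicase of the piRNA pathway, at 0.66 (adjusted p = 0.0459). In T2KO over T1KO, 8 of the 20 were above 1, beside 1.22% of all probes, and 0 passed by limma, where 0% of all probes did.

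Markers of cells in which Xlr genes were first described were also read. Of 6 lymphocyte markers 3 were tested, with DKO over WT values of -0.19 to -0.09 and T2KO over T1KO values of 0.04 to 0.13. The median ratio of 14 feeder markers was -0.04 in the DKO 51 pair, -0.53 in the DKO 61 pair, 0.91 in the DKO 60 pair and -0.06 in the DKO 59 pair, and -0.02 in T2KO 16 over T1KO 65. Of these 14, S100a6, a calcium-binding protein, fell in DKO over WT, with -0.66 (adjusted p = 0.0352 by limma). The Xlr3 mean ratio was 3.48 in the DKO 61 pair and 3.23 in the DKO 60 pair, and the part of feeder RNA in the Xlr ratios was not tested.

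Levels of the family's probes went together over the lines, as a description over 11 lines that share slides and dyes. Pearson r was 0.98 to 1.00 among the Xlr3 probes, 0.97 to 0.99 between Xlr3 and the Xlr4 probes other than Xlr4d-ps, 0.98 to 1.00 among the Xlr5 probes and 0.89 to 0.95 between Xlr3 and Xlr5. With Xlr4d-ps it was 0.58 to 0.82.

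Among 208 other genes that varied enough over the lines, the 8 most like the mean of the Xlr4a and Xlr4b probes had r of 0.84 to 0.99 over the 11 lines. First came an X-linked probe with no gene name (A_55_P2000595, chrX:71945677-71945736 on mm9), with r = 0.99, which lies 33.9 kb from the Xlr4d-ps probe and shares no run of 20 bases with any probe of the family. Its levels were 8.12, 9.63, 11 and 10.46 in DKO 51, 61, 60 and 59, against 6.83, 6.92, 7.92 and 9.62 in WT 6, 92, 7 and 94, and it had 9.37 in T2KO 16 and 6.49 and 6.58 in T1KO 99 and T1KO 65. As for Xlr4b, the female DKO lines were highest, and the T1KO and male WT lines were lowest. The probe was picked by its r over these same lines, so this order is no further observation. The others were Pramef17 on chromosome 4 (0.92), Nxf3 (0.89), Rhox13 (0.88), Gm5640 (0.86), Gm5639 (0.85) and Fmr1nb (0.84) on the X chromosome and Tuba3b on chromosome 6 (0.85).

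They parted in T2KO over T1KO, where Rhox13 had 2.01, Fmr1nb 1.49 and Nxf3 1.18, but Gm5640 had -0.44 and Gm5639 -0.27. The unnamed probe had 2.79 there, and 1.29, 2.71, 3.07 and 0.83 in the DKO 51, 61, 60 and 59 pairs.

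**Figure D4:**
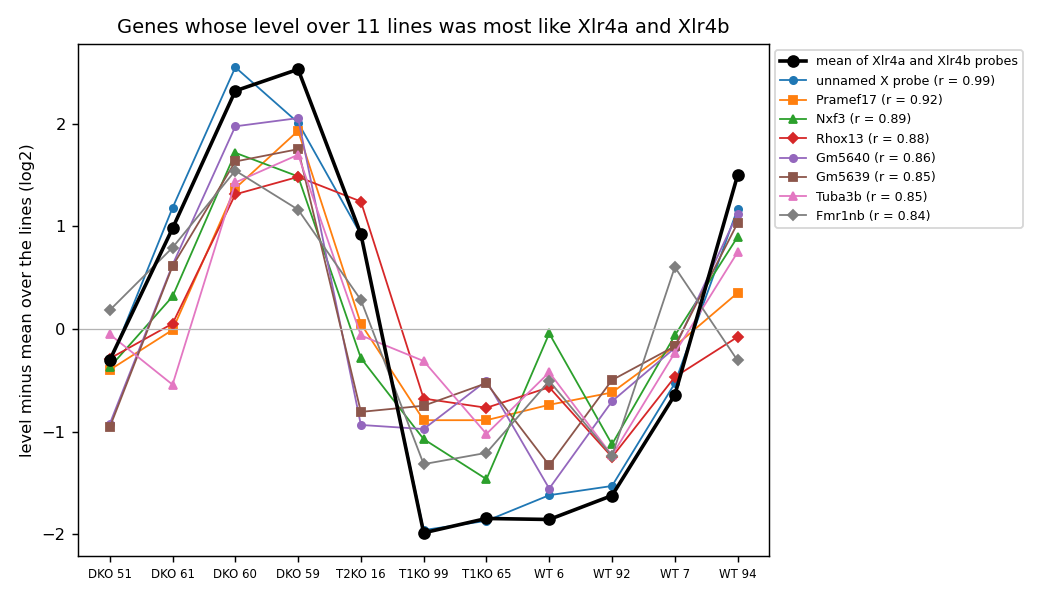
Level of 8 genes and of the mean of the Xlr4a and Xlr4b probes (black) in 11 lines (x axis), each minus its own mean over the lines (y axis, log2). The unnamed X-linked probe lies nearest the black line (r = 0.99), while Gm5640 and Gm5639 are low in T2KO 16.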

How the data were processed

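RNA of 11 ES cell lines was measured on 10 two-colour Agilent arrays on 3 slides, labelled from 200 ng of RNA. Per the file headers, the deposited scanner files were made with Agilent Feature Extraction 10.1.1.1 and hold mean and background intensity per spot and channel, and a log10 ratio of Cy5 over Cy3. The authors' deposited value table was set against these as a check only: 31539 of its 31595 rows matched, it runs as Cy5 over Cy3 near a log2 scale (r = 0.925 to 0.971 and slope 2.77 to 2.94 against the log10 ratios), its column medians are 0.00178, 0.00341 and 0.00544 (male DKO over WT), 0.00499, 0.00321 and 0.00752 (female DKO over WT), 0.00669 and 0.00565 (T1KO 99 arrays) and 0.00212 and 0.00685 (T2KO over T1KO), and how it was normalized or centred is not stated in the labels or headers.

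Intensities were background-corrected with normexp (offset 50, fitted without gene spots below local background), normalized by loess within and Aquantile between arrays in limma 3.58.1 (R 4.3.3), and averaged over spots of a probe and repeat arrays of a line. Outlier spots (173 to 337 per array) were left out. A probe was tested when every array of some genotype-and-sex group detected it well above background, which left 25869 of 39429. Tests were two-sided, by limma with Benjamini-Hochberg adjustment over all tested probes at 0.05. They were also run on simulated data with 200 changed probes. At a log2 change of 2, 67% were recovered for T2KO over T1KO, 88% for female minus male WT and 64% for female minus male of DKO over WT. At a log2 change of 1, recovery was 0%, 0% and 0.5% in the same order. The simulated noise was independent and followed limma's own fitted variance, so these shares need not hold for the Xlr probes. For T2KO over T1KO 93% were recovered at a log2 change of 4, yet the first Xlr3b probe, at 4.51, did not pass 0.05. The number of arrays limits the precision, and nothing says that lines stand for more than themselves. A p-value here sets a difference against the spread among these lines only. For T2KO over T1KO, with 1 line of each genotype, that spread comes from the DKO over WT pairs.

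Genes were named by rule: all Xlr3, Xlr4 and Xlr5 probes, neighbours within 500000 bases, the 8 genes most like Xlr4a and Xlr4b over the lines, and from each list those past 0.05 or, failing that, the 2 largest. The members and lists were chosen with earlier results of these data known. Alternatives were other background fits, the scanner's log ratios, other normalizations and filters, a random effect of pair and leaving out single lines or pairs. Counts of lines that do not overlap, without T1KO 99 and DKO 51, were added after seeing the data.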

Additional observations from a re-analysis of the deposited data

Results flagged for a closer look

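The 2 arrays of T1KO 99 also carry a Cy5 sample that the labels set aside for a wrong genotype, so it entered no comparison. In that unused channel 10 of the 11 Xlr probes were well above background on both arrays and lay above every male line measured in Cy3, which is what drew attention to them. The mean log2 level was 8.85 for Xlr3a, 11.97 and 11.99 for the Xlr3b probes, 9.37 and 10.63 for the Xlr4a probes and 10.81 for Xlr4b. It was 9.48 for Xlr5a, 11.86 for Xlr5b and 9.91 and 12.22 for the Xlr5c probes. Xlr4d-ps, at 6.64, was not well above background. These are levels of 1 sample in the other dye, and the difference from the Cy3 lines was not tested.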

How the results depend on the processing

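No paired analysis was possible because the replicate numbers in the labels mark repeat arrays of the same lines, so no replicate block could be fitted, and the pairing of each DKO line with its WT partner is already in the array ratios. For T2KO over T1KO, the count of Xlr probes past 0.05 was 4 when all arrays were kept and pairs entered as a random effect and 0 in the other 11 settings, leave-one-out included (0 to 0), and no probe changed sign. For female minus male of DKO over WT it was 0 in all 12 settings. For female WT minus male WT, leaving out a line gave 0 to 9. The mean DKO over WT ratio of the Xlr4 probes was 1.35 to 1.84 when a pair was left out and 2.51 with the scanner's log ratios (the cause was not tested). T1KO minus male WT changed sign with normexp fitted on all spots, to 0.62 for the Xlr4 mean, 0.55 for Xlr3a, 0.95 and 0.76 for Xlr3b, 0.54 and 0.89 for Xlr4a, 1.02 for Xlr4b, 0.20 for Xlr5b, and 0.18 and 0.16 for Xlr5c. Leaving out a line moved the Xlr4 mean over -0.22 to 0.03, and Xlr4a probe 1 over -0.19 (without WT 6) to 0.04 (without WT 92), and gave -0.02 for Xlr5a without T1KO 99 and 0.18 without T1KO 65. In these fits a lone line is assumed to vary like the other groups. A filter asking for detection on all arrays kept 0 Xlr probes and gave no value. Signal near background in male WT and T1KO lines limits the size of differences there.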
